A study of Homo sapiens with 12 samples.

Results

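The genes described here are the nuclear genes for subunits of the mitochondrial respiratory chain, measured in spheroids of 3 lines of the human prostate cancer cell line DU145. They were chosen by symbol alone. The symbols were NDUF followed by A, B, C, S or V and a number for complex I and SDH and a letter from A to D for complex II. For complex III they were UQCR followed by letters or digits. For complex IV they were COX and a number from 4 to 8, then a letter from A to C and a digit, each of which could be absent. The rule matched 65 of the 26485 genes of the deposited tables, 37 in complex I, 4 in complex II, 10 in complex III and 14 in complex IV. UQCRBP1, a processed pseudogene, and UQCRHL, a retroposed copy of UQCRH, carry matching symbols, which leaves 63 other genes. NDUFA4 is counted with complex I by its symbol, although its protein is known as a subunit of complex IV. COX4I1, NDUFAB1, COX7A2L and CYC1 are subunits or partners whose symbols fall outside the rule, and the subunits encoded by mitochondrial DNA are not among the genes.

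The respiratory chain passes electrons from NADH and succinate to oxygen in the inner mitochondrial membrane. Complex I (NADH dehydrogenase) and complex II (succinate dehydrogenase, also an enzyme of the tricarboxylic acid cycle) feed electrons to ubiquinone, complex III (the cytochrome bc1 complex) hands them to cytochrome c, and complex IV (cytochrome c oxidase) reduces oxygen. All but complex II pump protons, and ATP synthase uses the gradient. The nuclear subunit genes are transcribed in nearly every cell, some in tissue-specific isoforms, and NRF1, GABP, YY1 and ERRα are known to bind promoters of many of them.

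DU145KO is a population in which ITGA2, the gene of α2 integrin, was knocked out with CRISPR-Cas9 and which shows no α2 integrin at its surface, and the other two lines were derived from them and carry the same edit. In DU145KO+α2 the cDNA of α2 integrin was put back on a stably transfected vector (pAWneo2), and DU145KO+vector received that vector without insert. Both transfected lines, but not DU145KO, were kept in geneticin, so the vector and the selection cannot be told apart from each other in any comparison with DU145KO. Each line had 4 biological replicates, numbered 1 to 4, of spheroids of 8000 cells grown for 72 hours in medium without serum. Each genotype is 1 selected cell population, so p-values measure the spread between cultures of these populations and not between separately made lines. RNA was sequenced from whole spheroids, in which fewer cells of a kind and less RNA per cell cannot be told apart.

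Between 13948734 and 19988111 reads were counted on genes per sample, and the 65 genes took 0.442% to 0.536% of them. A count of 3, taken as the floor of detection, corresponded to 0.150 to 0.215 CPM (counts scaled to the library size with the TMM factors of edgeR), which covers counting error only because the reads carry no molecular identifiers. The level of ITGA2 was 305 ± 34 CPM after re-expression, 17.6 ± 3.2 CPM with the empty vector and 20.7 ± 4.2 CPM in the untransfected line (SD, n = 4 each). All 5 epithelial markers examined were measured in every sample, and their summed level was 860 to 1154 CPM in DU145KO+α2, 1142 to 1387 CPM in DU145KO+vector and 1211 to 1584 CPM in DU145KO, and whether this has a part in the results below was not tested. The summed level of 11 markers of other cell types was 70.3 to 89.99 CPM, 65.7 to 99.3 CPM and 65.2 to 106 CPM in the same order, most of it from CD68 at 47.8 to 81.7 CPM. PTPRC and CD3E, listed like CD68 as markers of leukocytes, had no count in 10 and 11 of the 12 samples, and MYH7 of muscle had none in 9. CKM of muscle had none in 6, COL3A1 of fibroblasts none in 4 and VWF of endothelium none in 2. The others were counted in every sample. MB of muscle was at 2.42 to 13.0 CPM and COL1A1 of fibroblasts at 7.65 to 12.1 CPM. PDGFRB of fibroblasts was at 0.0999 to 0.758 CPM and PECAM1 of endothelium at 0.400 to 1.35 CPM.

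The sequences before the transcription start are shown for SDHD and COX5B, whose promoter windows held motifs of several of the factors named above, and for NDUFA8 and NDUFB8, whose expression differed between the lines. Each line gives the last 150 bases before the RefSeq start, 5′ to 3′, on GRCh38.p14, with motifs that lie wholly within the run in capitals. Gene positions elsewhere in the text are from GENCODE, whose starts can differ. The SDHD and NDUFB8 runs extend into the genes as placed there, with starts at chr11:112086824 and chr10:100530000.
SDHD (chr11:112086723-112086872, plus strand): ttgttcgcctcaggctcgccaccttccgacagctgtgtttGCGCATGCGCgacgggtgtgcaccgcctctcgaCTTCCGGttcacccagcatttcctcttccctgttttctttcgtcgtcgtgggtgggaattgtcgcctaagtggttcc
COX5B (chr2:97645912-97646061, plus strand): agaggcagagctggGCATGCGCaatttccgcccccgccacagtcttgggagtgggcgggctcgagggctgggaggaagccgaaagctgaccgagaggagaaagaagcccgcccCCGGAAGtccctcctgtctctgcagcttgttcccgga
NDUFA8 (chr9:122159780-122159929, minus strand): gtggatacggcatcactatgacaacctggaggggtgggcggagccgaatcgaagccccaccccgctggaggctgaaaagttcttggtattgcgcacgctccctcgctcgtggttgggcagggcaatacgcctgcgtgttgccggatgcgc
NDUFB8 (chr10:100529924-100530073, minus strand): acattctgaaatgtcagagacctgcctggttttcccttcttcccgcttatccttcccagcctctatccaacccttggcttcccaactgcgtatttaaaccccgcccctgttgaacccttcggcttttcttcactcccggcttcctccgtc
The capitals in SDHD mark GCGCATGCGC, which holds the searched NRF1 motif GCGCATGC on both strands, from 110 to 101 bases before the start, and CTTCCGG, the GABP motif CCGGAAG read on the other strand, from 77 bases before the start. COX5B carried the NRF1 motif from 136 and the GABP motif from 37 bases before the start. A further GABP match in COX5B began 5 bases before the start and ran 2 bases past it, so it is not in capitals. NDUFA8 carried the NRF1 motif across the start itself, beginning 4 bases before it, at the right end of the printed run. Neither NRF1 nor GABP letters were found in the NDUFB8 window.

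Over windows of 300 bases, 250 before and 50 after the start, 51 of the 60 genes that could be tested had a full sequence in the RefSeq table. The NRF1 motif was found on either strand in 9 of these 51 (17.6%), against 3.27% of all 27305 promoters and 5.32% of the promoters of genes tested here. The GABP motif CCGGAAG was found in 14 (27.5%), against 10.7% of all promoters and 18.5% of those tested. The YY1 motif AAGATGGCG was found in 7 (13.7%), against 1.85% and 3.82%, and the ERRα motif CAAGGTCA in 3 (5.88%), against 1.33% and 0.775%. In all, 24 windows held a motif of any of the 4 factors and 7 held motifs of at least 2 factors (COX5B, COX6A1, COX8A, NDUFA6, NDUFS7, SDHB and SDHD). SDHD also held the ERRα motif, from 11 bases after its start, and SDHB held motifs of NRF1, GABP and YY1. These matches describe letters and not binding, and a window without a match says nothing about the factor.

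Of the 65 genes, 60 had enough counts to be tested, and the 5 others belong to complexes III and IV. The authors' RPKM values, which divide by gene length, were used to compare levels between genes. COX7C, a small subunit of complex IV, had the highest level at 438 ± 66 RPKM (SD over 12 samples), followed by COX6A1 at 251 ± 24 RPKM and COX6B1 at 192 ± 21 RPKM. In complex III the highest was UQCRH, the hinge protein, at 160 ± 17 RPKM and the lowest of the 8 that were tested UQCRB at 36.9 ± 4.3 RPKM. In complex I the levels ran from 157 ± 15 RPKM for NDUFV2, a subunit of the NADH-oxidizing module, to 5.99 ± 0.64 RPKM for NDUFA3. The 4 subunits of complex II lay close together, with SDHA (the flavoprotein) at 83.3 ± 6.0 RPKM, SDHD at 81.5 ± 6.3 RPKM, SDHC at 73.4 ± 5.1 RPKM (both membrane anchors) and SDHB (the iron-sulfur protein) at 57.5 ± 3.4 RPKM. SDHA and SDHD differed by less than their spread between samples. Among tested genes the ratio of the highest to the lowest level was 1.45 in complex II, 4.35 in complex III and 26.2 in complex I. It was 858 in complex IV, whose lowest tested gene, COX8C, was at 0.511 RPKM.

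The median level per complex was 62.6 RPKM in complex I, 77.5 in complex II, 69.3 in complex III and 119 in complex IV, and 8.11 over all 14732 genes tested. The genes are short, with a median length of 0.963 kb in the authors' RPKM against 3.26 kb over all genes tested. Across the 60 genes, level and length were related inversely (Spearman's rho −0.709 across genes, which are not independent replicates), and since RPKM divides by length both measures share that length. From the lowest level upwards, the 5 lowest genes of complex I were NDUFA3, NDUFA6, NDUFC2, NDUFA10 and NDUFV3, with lengths of 3.57, 4.78, 2.50, 4.96 and 2.15 kb.

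**Figure D1:**
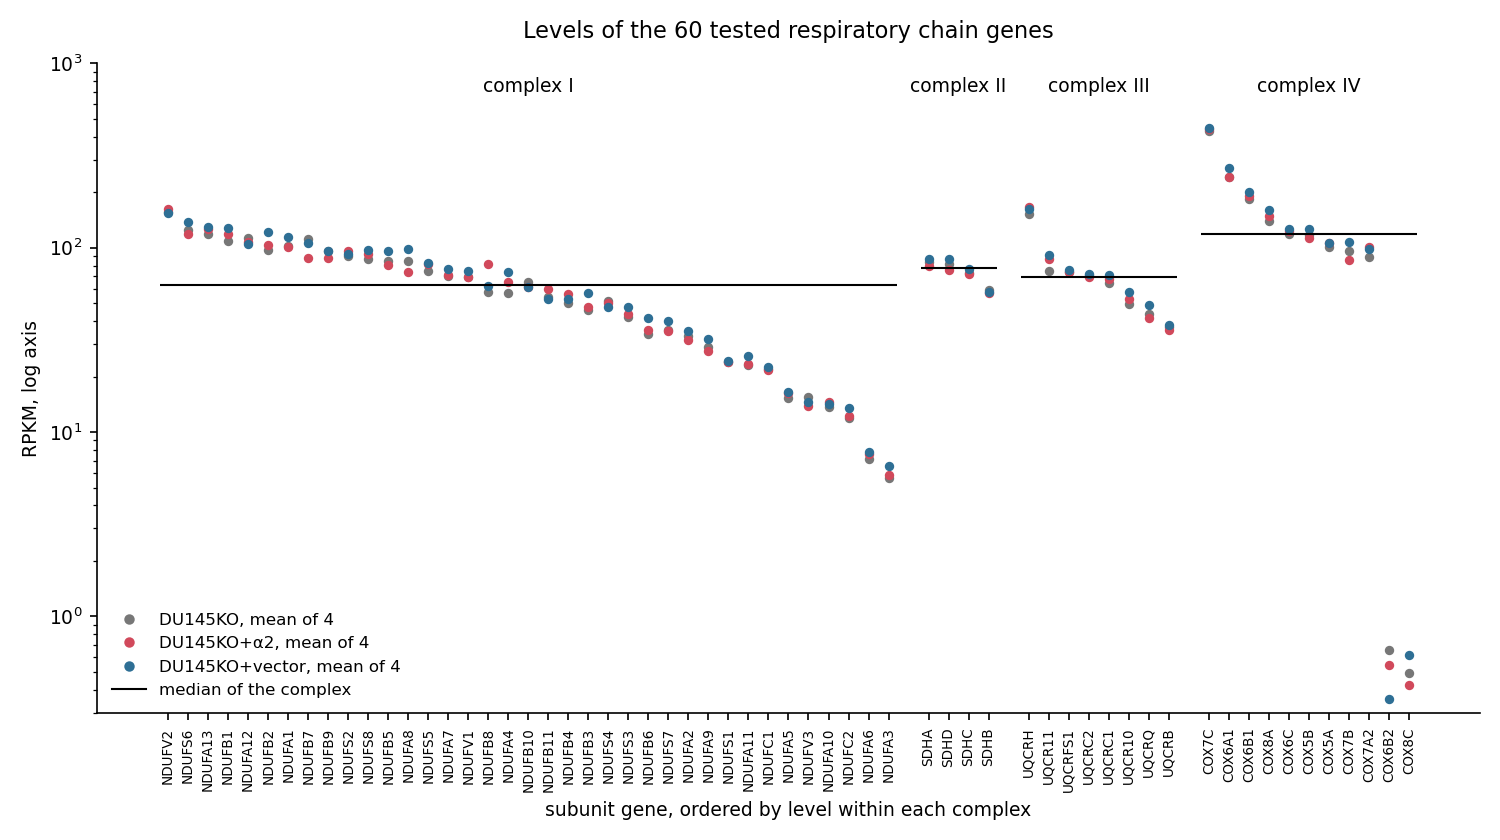
RPKM on a log axis for the 60 tested genes, ordered within each complex, with a point for the mean of the 4 samples of each line and a black line at the median of the complex. Within a gene the 3 lines lie close together compared with the distance between genes, and COX6B2 and COX8C lie far below the other genes of complex IV.

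In each isoform pair of complex IV 1 partner was far above the other. COX6A1 was at 144 CPM on average, while COX6A2, the heart and muscle isoform, had 0 or 1 count in every sample. COX7A2 was at 72.7 CPM and COX7B at 44.1 CPM, and their partners COX7A1 (heart and muscle) and COX7B2 (testis) had no count in any of the 12 samples, which allows at most the floor given above. COX6B1 was at 113 CPM and its testis isoform COX6B2 at 0.503 to 1.35 CPM. COX8A was at 75.8 CPM and COX8C, also known from testis, at 0.295 to 0.831 CPM. UQCRHL had 3 to 11 counts where UQCRH had 1598 to 2539, and UQCRBP1 had none. Only uniquely aligned reads were counted, so genes with near-identical copies elsewhere, such as UQCRH, UQCRB and SDHA, may be undercounted.

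The comparison of DU145KO+α2 with DU145KO+vector asks what returning α2 integrin changes on a shared background of vector and selection. NDUFB8 was higher and NDUFA8 and NDUFB5 were lower in DU145KO+α2, all 3 of them accessory subunits of complex I, and each by less than 2-fold. No gene of complexes II, III or IV passed the test. The 1 gene higher and 2 lower among 60 stand against 5.96% of all genes tested that were higher and 5.95% that were lower (edgeR's quasi-likelihood test, Benjamini-Hochberg adjusted p below 0.05). In this fit without a replicate block both shares of the respiratory chain genes lay below those of the whole table, and the fit with the block is given further on. None of the 60 was called with a fold change above 2, against 2.21% of all genes.

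NDUFB8 (chr10:100523740-100530000, minus strand, GRCh38) reached 76.9, 75.2, 75.1 and 81.7 CPM in DU145KO+α2, with replicates in the order of their numbers. The 4 samples with the empty vector had 63.3, 58.5, 58.2 and 55.6 CPM. The untransfected DU145KO cells had 59.9, 51.4, 54.3 and 56.1 CPM. All 4 DU145KO+α2 samples lay above all 8 α2 negative samples, and the α2 negative lines overlapped. Compared with DU145KO+vector it was higher by 0.39 ± 0.07 on the log2 scale (fitted value ± standard error, edgeR adjusted p = 0.00158), and compared with DU145KO by 0.48 ± 0.07 (edgeR adjusted p = 0.000419). The exact permutation p was 0.029 for both, the smallest that 4 samples against 4 allow. Its exons overlap those of HIF1AN on the opposite strand over 16.3% of their length, and whether the counting used the strand is not given in the sources used here. HIF1AN itself had a log2 fold change of −0.06 against DU145KO+vector (adjusted p = 0.775 from edgeR).

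NDUFA8 (chr9:122144058-122159779, minus strand) had 65.0, 60.4, 55.6 and 66.8 CPM in the DU145KO+α2 samples and 84.7, 80.8, 79.8 and 85.8 CPM in those of DU145KO+vector. The 4 DU145KO samples had 78.3, 70.1, 62.9 and 75.5 CPM. DU145KO lay between the other two lines and overlapped DU145KO+α2, whereas DU145KO+vector lay above both without overlap. The log2 fold change of DU145KO+α2 was −0.42 ± 0.08 against DU145KO+vector (edgeR adjusted p = 0.00271) and −0.21 against DU145KO (edgeR adjusted p = 0.130, or 0.00724 with the replicate number as a block). That of DU145KO+vector against DU145KO was 0.21 (edgeR adjusted p = 0.218, or 0.0117 with the block). The nearest 40 tested genes on chromosome 9, 20 on each side, had a median log2 fold change of −0.29 in DU145KO+α2 against DU145KO+vector. Around the other 59 genes this median ran from −0.07 to 0.11. The log2 fold change of NDUFA8 minus that of its neighbourhood was −0.13, and the part of the region in its fold change was not tested.

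NDUFB5 (chr3:179604690-179627647, plus strand) had 89.4, 85.1, 79.6 and 85.5 CPM in DU145KO+α2 and, with the empty vector, 102, 104, 89.97 and 110 CPM. Its DU145KO values of 96.1, 91.7, 84.4 and 92.1 CPM overlapped both other lines. The lowest DU145KO+vector sample, replicate 3, lay just above the highest DU145KO+α2 sample. The log2 fold change was −0.26 ± 0.07 (edgeR adjusted p = 0.0307, or 0.000754 with the replicate block). Of the 3 calls it was the one that unblocked alternatives lost. Without the block, the adjusted p of edgeR was 0.116 after a correction for gene length and GC content and 0.0570 without the filter on low counts. It was 0.0547, 0.112 and 0.0650 without replicates 2, 3 and 4 of DU145KO+α2, and 0.0742, 0.0804 and 0.104 without replicates 1, 2 and 4 of DU145KO+vector. MRPL47, which lies next to NDUFB5 (chr3:179588285-179604649) and encodes a protein of the mitochondrial ribosome, had a log2 fold change of −0.19 (edgeR adjusted p = 0.268, or 0.0356 with the block).

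**Figure D2:**
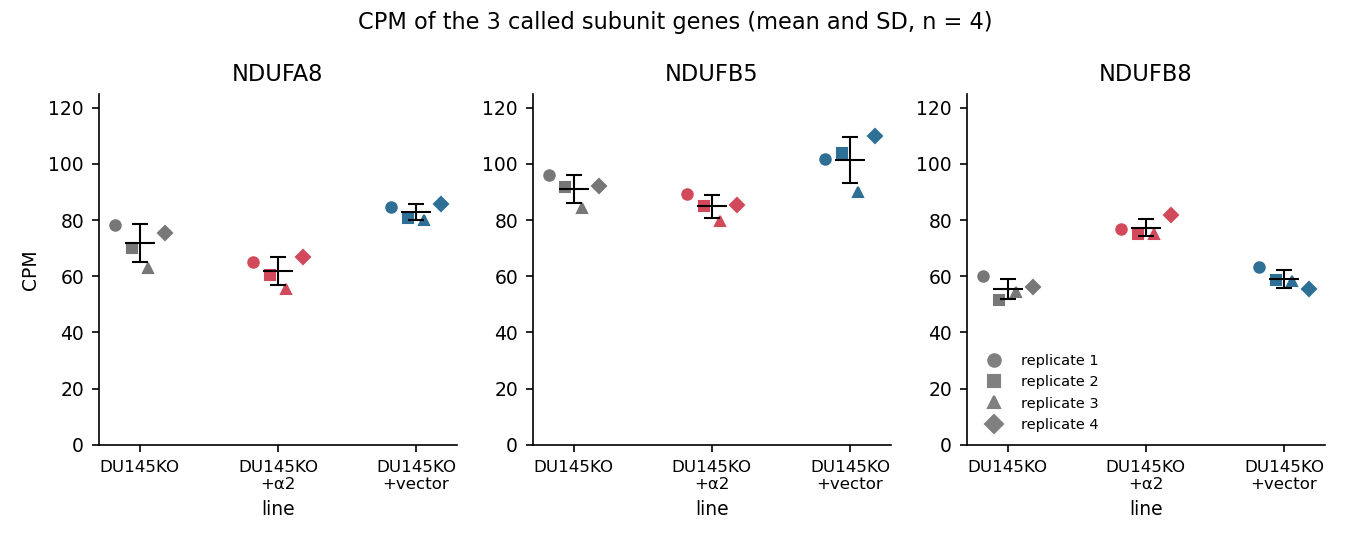
CPM of NDUFA8, NDUFB5 and NDUFB8 in each of the 12 samples by line, with the mean and SD (n = 4) in black and the replicate number as the marker shape. For NDUFB8 the DU145KO+α2 samples (75.1 to 81.7 CPM) stand above both α2 negative lines, whereas for NDUFA8 and NDUFB5 the lines run from DU145KO+α2 through DU145KO to DU145KO+vector.

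**Figure D3:**
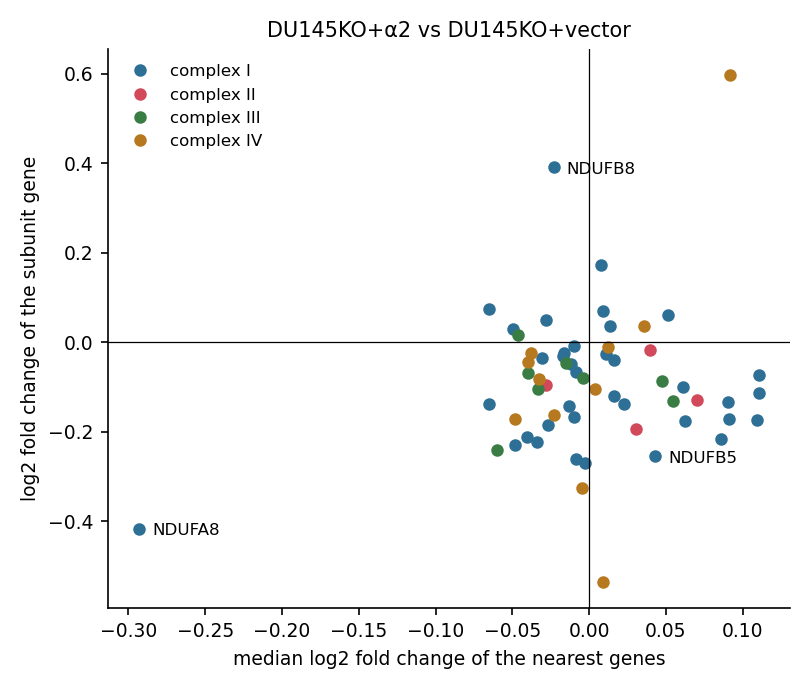
Log2 fold change of each of the 60 genes in DU145KO+α2 against DU145KO+vector (vertical axis) and the median over its nearest tested genes on the same chromosome (horizontal axis), coloured by complex. NDUFA8 stands alone at a neighbourhood median of −0.29, and NDUFB5 and NDUFB8 lie in neighbourhoods close to 0.

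The replicate numbers were taken to pair the samples across lines, which the labels do not state. This was inferred from these counts, in which deviations of same-numbered samples correlated at 0.135 to 0.554, and all blocked results rest on it. A block for the number moved no log2 fold change of the 60 genes by more than 0.014. The standard errors were smaller with the block for 58 of 60 genes in each comparison, with a median ratio of 0.68, and were larger for COX6B2 and COX8C. With the block, 2 genes were higher and 15 lower in DU145KO+α2 compared to DU145KO+vector, against 12.9% and 13.7% of all genes tested. NDUFB8 and NDUFB11 were the 2 that were higher. Of the 15 lower genes, 10 belong to complex I, 1 to complex II, 1 to complex III and 3 to complex IV. In complex I these were NDUFA1, NDUFA4, NDUFA8, NDUFA9, NDUFB2, NDUFB3, NDUFB5, NDUFB6, NDUFB7 and NDUFS6, with blocked log2 fold changes from −0.42 to −0.18. The others were SDHD, UQCRQ (a small subunit of complex III), COX5B, COX6A1 and COX7B. The 3 genes called without the block were all among the 17 called with it. The respiratory chain genes have higher counts than most genes, which gives smaller errors, and their share of calls was not compared at matched expression.

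SDHD, a membrane anchor of succinate dehydrogenase, had 129, 118, 113 and 121 CPM in DU145KO+α2 and, with the empty vector, 137, 142, 132 and 138 CPM, without overlap. Its log2 fold change was −0.19 ± 0.07 (edgeR adjusted p = 0.0782, or 0.00776 with the block). SDHA, SDHB and SDHC had log2 fold changes of −0.13, −0.02 and −0.10 and did not pass edgeR with or without the block. COX7B was at 39.0 ± 4.9 CPM against 48.8 ± 7.1 CPM (SD, n = 4), and its samples overlapped between the lines, since replicate 2 was the lowest of its line in both. Its log2 fold change was −0.33 (edgeR adjusted p = 0.0642, or 0.00197 with the block).

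The direction of the 60 genes was mostly downward in this comparison although few passed the test singly. The fitted log2 fold change was negative for 49 of 60, with a median of −0.10 against −0.01 over all genes tested. By complex the median was −0.11 in complex I, −0.11 in complex II, −0.08 in complex III and −0.08 in complex IV. Taken between samples of the same replicate number, the median difference over the 60 genes was −0.10, −0.08, −0.15 and −0.08 in the order of the numbers, a mean of −0.10 ± 0.03 (SD, n = 4). It was negative at all 4 numbers in each complex, with means of −0.11 ± 0.04, −0.11 ± 0.07, −0.09 ± 0.07 and −0.11 ± 0.03 from complex I to IV, and the difference between complexes was not tested. With each sample left out in turn the median over the 60 genes ran from −0.13 to −0.04, and it was −0.04 without replicate 3 of DU145KO+α2 and −0.06 without replicate 1 of DU145KO+vector. The 95% confidence interval of the fold change lay within 0.5 on the log2 scale in either direction for 54 of 60 genes and within 2-fold for 58, and the 2 exceptions, COX6B2 and COX8C, had 23 counts or fewer in every sample.

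**Figure D4:**
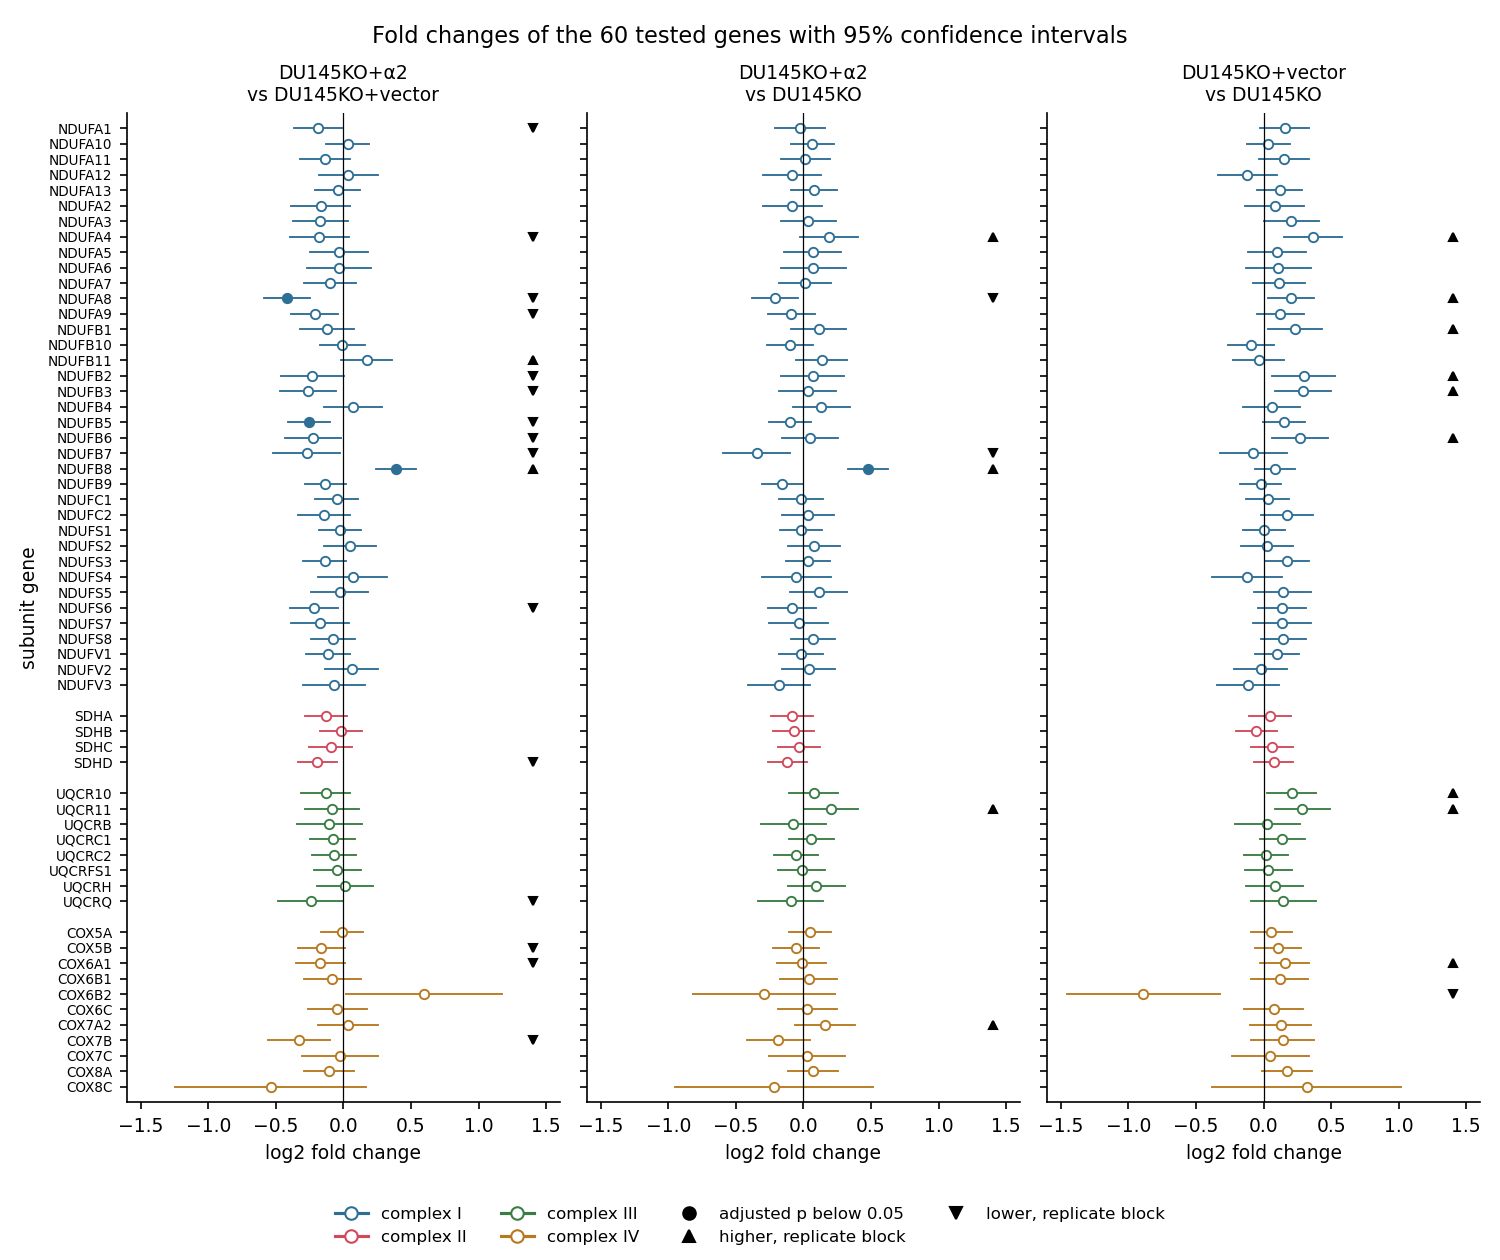
Log2 fold change (points) and 95% confidence interval (bars) of the 60 genes in the 3 comparisons, ordered by complex, with filled points at an edgeR adjusted p below 0.05. Triangles at the right mark genes called in the blocked fit, 17 in the first comparison, 6 in the second and 10 in the third, pointing up or down with the direction of the change.

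The comparison of DU145KO+α2 with DU145KO joins α2 integrin with vector and selection. NDUFB8 alone passed the test, as given above. This makes 1 higher and 0 lower of 60, against 3.09% and 5.08% of all genes tested, and 0 with a fold change above 2, against 2.10%. DESeq2 and voom with limma also called only NDUFB8, and 5 genes had an unadjusted p below 0.05 in edgeR. With the replicate block, 4 genes were higher (NDUFB8, NDUFA4, COX7A2 and UQCR11) and 2 lower (NDUFA8 and NDUFB7), against 9.93% and 12.4% of all genes. NDUFB7 was at 46.2, 52.9, 49.3 and 44.7 CPM in DU145KO+α2, as against 67.2, 62.3, 68.5 and 47.5 CPM in DU145KO, where replicate 4 fell within the range of DU145KO+α2. Its log2 fold change was −0.35 (edgeR adjusted p = 0.0854, or 0.00110 with the block, and 0.0115 without replicate 4 of DU145KO). The median over the 60 genes was 0.01, with 31 positive and 29 negative values, and by complex it was 0.03, −0.08, 0.02 and 0.03 from complex I to IV. The interval lay within 2-fold for all 60 genes and within 0.5 on the log2 scale for 56.

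The comparison of DU145KO+vector with DU145KO measures vector and selection without α2 integrin. No gene of the 60 passed edgeR's test, against 0.496% of all genes higher, 1.84% lower and 0.835% called with a fold change above 2. There were 11 genes with an unadjusted p below 0.05, voom with limma called none and DESeq2 called 1, NDUFA4. With the replicate block, 9 genes were higher and 1 lower, against 5.59% and 7.85% of all genes. Of the 9, 6 belong to complex I by symbol (NDUFA4, NDUFA8, NDUFB1, NDUFB2, NDUFB3 and NDUFB6), 2 to complex III (UQCR10 and UQCR11) and 1 to complex IV (COX6A1). NDUFA4 was at 178, 137, 147 and 147 CPM in DU145KO+vector and at 128, 105, 112 and 127 CPM in DU145KO, without overlap, a log2 fold change of 0.37 (standard error 0.10, edgeR adjusted p = 0.0743, or 0.0001 with the block). COX6B2, the gene that was lower, had 7 to 11 counts in DU145KO+vector and 14 to 23 in DU145KO (log2 fold change −0.89, standard error 0.27, edgeR adjusted p = 0.0996, or 0.0464 with the block).

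The median over the 60 genes was 0.11 in this comparison, against 0.00 over all genes, and 50 of 60 values were positive. It was 0.11, 0.05, 0.11 and 0.12 from complex I to IV. After the correction for gene length and GC content the median was 0.06, the largest change that any setting made to it, and it was 0.07 without replicate 1 of DU145KO+vector. This comparison and the first share the DU145KO+vector samples, so that their opposite signs are not separate observations. The summed level of the 65 genes was 5040 ± 295 CPM in DU145KO+vector, 4760 ± 307 CPM in DU145KO+α2 and, for DU145KO, 4731 ± 293 CPM (SD, n = 4 each), and these ranges overlapped. At each replicate number DU145KO+vector was the highest of the 3 lines, in 4 of 4.

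NDUFS4, a subunit needed for the assembly of complex I, is the respiratory chain gene nearest to the edited gene. It begins 465854 bases after the end of ITGA2 on chromosome 5 (chr5:53560633-53683338, plus strand). It ranged from 29.8 to 40.7 CPM with α2 integrin, from 27.3 to 39.2 CPM with the empty vector and from 29.7 to 38.6 CPM in DU145KO, and these ranges overlap. Its log2 fold changes were 0.07, −0.05 and −0.12 in the 3 comparisons in the order above, none of which passed edgeR with or without the block.

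More of these genes differed by replicate number than in any comparison of lines. A test of the replicate terms in the blocked edgeR fit, chosen after the values were seen, called 38 of 60 genes, against 35.7% of all genes tested. By complex these were 21 of 37 in complex I, 1 of 4 in complex II, 7 of 8 in complex III and 9 of 11 in complex IV. The range between replicate numbers had a median of 0.25 on the log2 scale against 0.28 over all genes. All genes have lower levels (median 8.11 RPKM against 71.9 RPKM), and the range at matched expression was not tested. Of the 38 called, 29 (76.3%) were highest in replicate 1, against 31.2% of the 5259 genes called in the whole table. The lowest number was replicate 3 for 18 (47.4%, against 24.0% of all called genes) and replicate 2 for 14 (36.8%, against 18.4%). The median deviation from the line means over the 60 genes was 0.10 in replicate 1, −0.05 in replicate 2, −0.09 in replicate 3 and 0.02 in replicate 4, while over all genes, on which the scaling centres the samples, it was 0.00 in each. With gene length and GC content corrected, 27 of 60 genes were called, against 35.9% of all genes. In fits with 1 line left out, the number called was 24 without DU145KO (against 25.9% of all genes), 21 without DU145KO+α2 (against 24.3%) and 9 without DU145KO+vector (against 14.3%). Without DU145KO+vector the share of the respiratory chain genes was thus close to that of all genes, whereas it was above it in the other fits. Calls became fewer in the whole table as well.

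COX7C showed it most clearly, with 207, 169, 167 and 160 CPM in DU145KO, in the order of the replicate numbers. It was at 223, 155, 161 and 177 CPM in DU145KO+α2. The values with the empty vector were 229, 174, 165 and 161 CPM. Replicate 1 was above all 9 other samples in all 3 lines (adjusted p = 5.76e-05 from the edgeR test of the replicate terms), whereas the line means of 176, 179 and 182 CPM in DU145KO, DU145KO+α2 and DU145KO+vector differed by less than the spread between replicates. UQCRB, COX7A2, UQCRQ and NDUFA4 followed in order of p. In complex II the median deviation was 0.05 in both replicates 1 and 2. What the replicate number stands for is not given beyond biological replicates, and its relation to culture, extraction or lane was not tested.

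**Figure D5:**
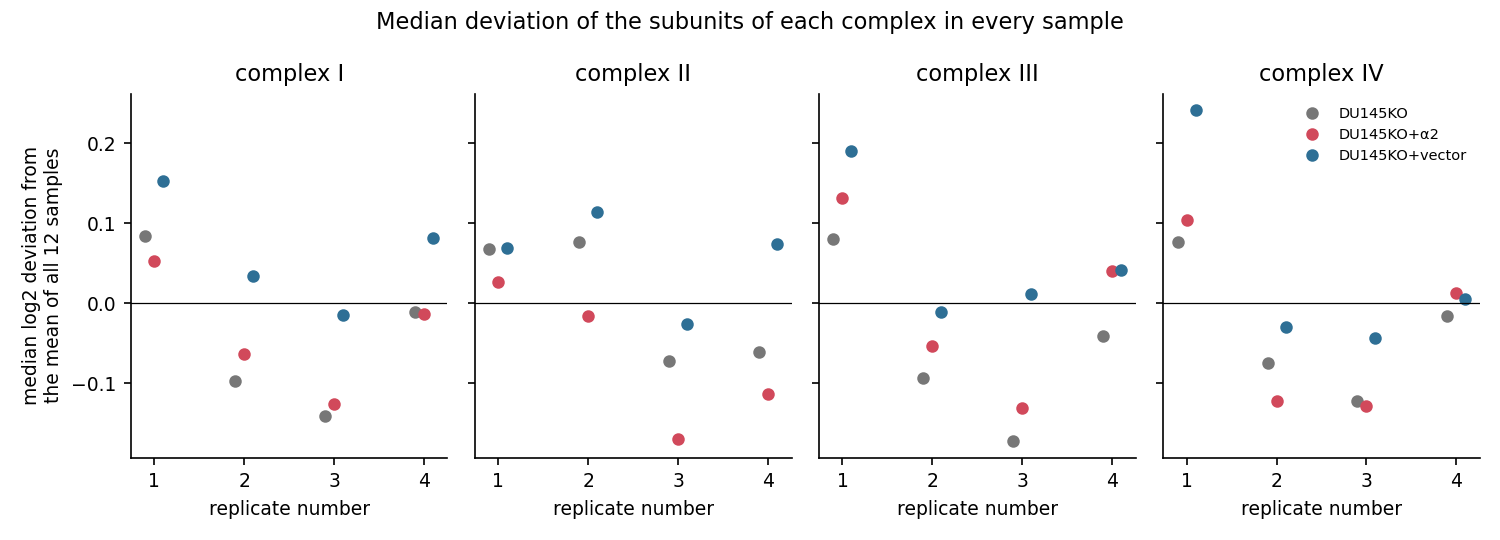
Median log2 deviation of the tested subunit genes of each complex from their mean over all 12 samples (vertical axis), by replicate number (horizontal axis) and line (colour). In complexes I, III and IV replicate 1 is the highest of every line, and in complex II replicates 1 and 2 lie at a like height.

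Genes that work beside the chain were examined from lists. None of the 19 ATP synthase subunit genes passed edgeR in any comparison. Their median log2 fold change was −0.14 in DU145KO+α2 against DU145KO+vector, 0.02 against DU145KO, and 0.13 in DU145KO+vector against DU145KO. With the block 5 were lower in the first comparison, 2 higher and 1 lower in the second, and 6 higher in the last. Over all genes tested, 13.7% were lower in the first with the block. In the second 9.93% were higher and 12.4% lower, and in the last 5.59% were higher. Of 76 genes of mitochondrial ribosomal proteins, 1 (MRPS6) was higher and 9 were lower in DU145KO+α2 compared to DU145KO+vector, with MRPL41 (log2 fold change −0.45) and MRPL48 (−0.39) among those lower, and the list's median was −0.08. Over all genes tested 5.96% were higher and 5.95% lower in this comparison. With the block the counts of the list were 2 and 18, against 12.9% and 13.7% of all genes. The assembly factor genes examined were 16 for complex I, 10 for complexes II and III and 26 for complex IV. In the same comparison COA1 was higher (log2 fold change 0.36, edgeR adjusted p = 0.0173), and FOXRED1, UQCC2 and SURF1 were lower (−0.29, −0.27 and −0.39). NDUFAF2 was lower in DU145KO+α2 than in DU145KO (−0.46, edgeR adjusted p = 0.0227), where 5.08% of all genes tested were lower. Of 20 genes of mitochondrial membrane transport and import, only TOMM5, a small subunit of the import pore of the outer membrane, passed without the block. It was lower in DU145KO+α2 compared to DU145KO+vector (log2 fold change −0.63, edgeR adjusted p = 0.000232) and higher in DU145KO+vector than in DU145KO (0.44, edgeR adjusted p = 0.0134). Over all genes tested, 5.95% were lower in the former comparison and 0.496% higher in the latter.

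Of 14 enzyme genes of the tricarboxylic acid cycle, SUCLG1 was lower against DU145KO+vector (log2 fold change −0.34) and IDH3A against DU145KO (−0.24). Of all genes tested, 5.95% and 5.08% were lower in these 2 comparisons, and 3.09% were higher in the second. Of 12 tested regulators of mitochondrial gene expression, POLRMT, the mitochondrial RNA polymerase, was higher in DU145KO+α2 than in DU145KO (log2 fold change 0.27, edgeR adjusted p = 0.0288), and no other passed in any comparison without the block. NRF1, GABPA, YY1, ESRRA and TFAM had log2 fold changes between −0.20 and 0.13 in DU145KO+α2 against DU145KO+vector. PPARGC1A averaged at most 0.0624 CPM in any line and was not tested. None of the 6 tested subunits and partners outside the symbol rule passed edgeR, with COX4I1 at 236 RPKM and a log2 fold change of 0.01 in the first comparison.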

How the data were processed

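RNA of 12 spheroid samples was sequenced as single-end reads from stranded mRNA libraries. The submitters' processing notes name bcl2fastq 1.8.4, TopHat2 2.1.0, Subread 1.5.0, edgeR, limma and hg38. The authors counted uniquely aligned reads per gene and deposited these raw counts, which were tested here, and also deposited RPKM values, which were used for levels between genes.

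The tests were run with edgeR 4.0.16 under R 4.3.3 (TMM, filterByExpr with a minimum count of 10, robust quasi-likelihood F-test, Benjamini-Hochberg adjustment over 14732 genes, two-sided), with all 12 samples in 1 model of line. Alternatives were limma 3.58.1, DESeq2 1.42.0, other scalings and filters, a length and GC content correction (available for 91.0% of genes tested), each sample left out and a replicate block. Fits were tested on simulated data. Replicate numbers were taken as pairs because deviations of same-numbered samples from their line means correlated at 0.135 to 0.554 in all 12 pairs. None of the 66 pairs of libraries agreed within sampling noise (chi-square per degree of freedom of at least 6.98).

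Subunit genes and lists were chosen with earlier results of these data known. Genes named are those called, the highest and lowest per complex, isoform pairs, complex II, regulators, partners outside the symbol rule, ITGA2 and the leading genes of other lists. NDUFS4, HIF1AN, MRPL47, NDUFA6, NDUFC2, NDUFA10, NDUFV3, CD68 and members named for the block or the replicate number were added after their values were seen. Lanes were not used here.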

Additional observations from a re-analysis of the deposited data

Results flagged for a closer look

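In 9 of the 183 groups of 4 samples examined, 1 sample stood apart by Dixon's criterion (its gap to the nearest sample divided by the whole range, above 0.829). Chance gives about 1 in 20 groups, or 9.15 here. The sample apart was replicate 1 in 7 of the 9, and it was above the others in each of these 7. The gap was 0.857 of the range for COX5B in DU145KO+α2 (63.3 CPM against 54.6 to 55.8 CPM), 0.885 for NDUFA4 in DU145KO+α2 (160 CPM against 123 to 128 CPM) and 0.847 for COX8A in DU145KO (78.8 CPM against 68.7 to 70.3 CPM). In DU145KO+vector it was 0.862 for COX6C (141 CPM against 105 to 110 CPM), 0.893 for NDUFA13 (75.4 CPM against 67.9 to 68.7 CPM), 0.969 for UQCRFS1 (103 CPM against 89.1 to 89.6 CPM) and 0.854 for UQCRQ (91.4 CPM against 71.7 to 74.6 CPM). Replicate 2 stood apart for NDUFA11 in DU145KO, where it was lower (0.880 of the range, 56.5 CPM against 71.1 to 73.0 CPM), and for NDUFV1 in DU145KO+α2, where it was higher (0.853, 128 CPM against 106 to 109 CPM).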

How the results depend on the processing

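The fitted change kept its direction under every alternative run for each named gene that was called, and 2167 of 2237 values kept their side of the threshold. Of the others, 62 passed only under an alternative, 30 of them under the replicate block, and 8 lost their call, all for NDUFB5 in DU145KO+α2 against DU145KO+vector. The number of respiratory chain genes called in that comparison, 3, became 17 with the replicate block, 17 with the block and the length and GC content correction, 0 when a fold change above 2 was also required, and 2 to 4 with a sample left out. Against DU145KO the 1 gene became 6 with the block, 3 with the length and GC content correction, 8 with both, 0 with the fold change above 2, and 1 to 2 with a sample left out (2 without replicate 4 of DU145KO, where NDUFB7 was added). For DU145KO+vector against DU145KO the 0 became 1 in DESeq2, 10 with the block and 8 with the block and the correction. It was 0 to 1 with a sample left out (1 without replicate 1 of DU145KO+α2). The block also raised the calls over all genes tested. In the first comparison they went from 5.96% higher and 5.95% lower to 12.9% and 13.7%. Against DU145KO they went from 3.09% and 5.08% to 9.93% and 12.4%, and in the last from 0.496% and 1.84% to 5.59% and 7.85%. For the length and GC content correction, DESeq2 and the fits with a sample left out, such shares are not given here. Genes varying with the replicate number went from 38 to 24, 21 and 9 without DU145KO, DU145KO+α2 and DU145KO+vector, alternatives chosen after seeing the data, in fits with fewer samples in which calls over all genes fell too. Without DU145KO+vector their share was close to that of all genes. The cause of these and the other changes was not tested. Of the values called neither in the chosen fit nor in the alternative, 53 changed sign under an alternative. The median fold change over the genes moved by less than 1 SD between replicates of a line, not paired by number, in all planned settings. That SD was 0.088 to 0.089 and includes the differences between replicate numbers. Paired by number, the SD of the median was 0.035, 0.026 and 0.014 in the 3 comparisons. Leaving out 1 sample moved the median by more than this in each comparison. In the first it went from −0.10 to −0.04 and in the last from 0.11 to 0.07. In the second it went from 0.01 to as low as −0.03 and as high as 0.06, so its sign was not kept.

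At these depths each tested gene of complexes I to III was measured to within 2-fold in every comparison, whereas COX6B2 and COX8C were not in 2 of the 3. Each line is 1 cell population, so line and α2 integrin cannot be told apart beyond the comparisons given. Protein, enzyme activity and mitochondrial transcripts were not analysed here.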
